A study of Mus musculus with 6 samples.

Results

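The glycolysis and hypoxia response genes described here are 40 genes chosen by symbol: the glucose transporters, the enzymes from hexokinase to lactate dehydrogenase, their regulators, the hypoxia-inducible factors (HIF) with the enzymes that sense oxygen for them, and other target genes of HIF. Of these, 39 stood among the 16880 genes of the expression table and 36 had enough reads to be among the 11983 genes tested; Ldhb was not analysed here. RNA was sequenced in 6 libraries labelled ATDC5, a mouse chondrogenic cell line, grown in high-glucose DMEM with serum. In 3 libraries (IL) the cells had received IL-1β at 10 ng/mL, an inflammatory cytokine, and in 3 libraries (ILN) the same IL-1β together with 10 μM NP-G2-044, a small-molecule inhibitor of the actin-bundling protein Fascin1. The methods give 24 h of treatment and describe primary articular chondrocytes from newborn mice in DMEM/F12, so that cell and medium differ between labels and methods, and which applies to these libraries cannot be told from them. Also, the treatment label of the ILN samples reads NP-G2-047 where the titles read NP-G2-044. All 6 libraries carried IL-1β, and a DMSO group was not analysed here, so each value sets the inhibitor plus IL-1β against IL-1β alone.

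Glycolysis splits glucose into pyruvate, and lactate dehydrogenase reduces pyruvate to lactate so that the pathway can run without oxygen. When oxygen is scarce, the prolyl hydroxylases encoded by the Egln genes no longer mark HIF-1α for destruction, and HIF-1α pairs with ARNT, binds short DNA motifs and raises the transcription of most glycolytic genes and of genes for blood vessel growth, pH control and mitochondrial turnover. Cartilage has no blood vessels, and its chondrocytes live in low oxygen and draw much of their ATP from glycolysis. Oxygen was not varied in these cultures as far as the labels and methods say.

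The 6 sequences printed below are the 250 bases before the start site of genes past both cutoffs (explained in the next paragraphs) for which RefSeq gave 1 promoter: 4 genes that were lower with the inhibitor (Pfkl, Bnip3, Car9, Ankrd37) and 2 that were higher (Ero1a, Eno2). Egln3 also had 1 promoter and is not printed, since the bases after its RefSeq start lie in no transcript of GENCODE vM21. The sequences run 5′ to 3′ on the strand of the gene, from RefSeq on GRCm38.p6, the build that mm10 names. Capitals mark ACGTG or GCGTG, the core letters of the HIF-binding motif, or the same letters read on the other strand (CACGT and CACGC); the palindrome CACGTG counts on both strands. Pfkl lies at chr10:78009808-78010057 (minus strand), Bnip3 at chr7:138909507-138909756 (minus strand), Car9 at chr4:43506776-43507025 (plus strand), Ankrd37 at chr8:45999851-46000100 (minus strand), Ero1a at chr14:45318573-45318822 (minus strand) and Eno2 at chr6:124769674-124769923 (minus strand).
Pfkl: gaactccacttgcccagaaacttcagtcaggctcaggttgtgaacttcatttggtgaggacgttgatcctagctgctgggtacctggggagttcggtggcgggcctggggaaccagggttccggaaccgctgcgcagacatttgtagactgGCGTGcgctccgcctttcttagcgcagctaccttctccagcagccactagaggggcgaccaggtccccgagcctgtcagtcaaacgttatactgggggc
Bnip3: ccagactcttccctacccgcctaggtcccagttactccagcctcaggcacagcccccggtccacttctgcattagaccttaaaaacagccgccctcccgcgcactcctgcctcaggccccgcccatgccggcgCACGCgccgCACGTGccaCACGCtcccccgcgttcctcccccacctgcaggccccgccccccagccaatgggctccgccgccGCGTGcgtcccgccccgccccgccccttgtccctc
Car9: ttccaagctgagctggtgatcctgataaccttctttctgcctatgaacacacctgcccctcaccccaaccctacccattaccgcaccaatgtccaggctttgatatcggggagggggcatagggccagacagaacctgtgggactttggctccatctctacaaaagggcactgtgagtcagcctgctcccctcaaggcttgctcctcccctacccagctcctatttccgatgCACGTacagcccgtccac
Ankrd37: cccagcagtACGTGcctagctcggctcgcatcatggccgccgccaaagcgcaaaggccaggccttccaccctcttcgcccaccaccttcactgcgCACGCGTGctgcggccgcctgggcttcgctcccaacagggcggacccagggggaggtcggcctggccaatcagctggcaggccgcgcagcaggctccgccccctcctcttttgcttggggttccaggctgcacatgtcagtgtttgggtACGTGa
Ero1a: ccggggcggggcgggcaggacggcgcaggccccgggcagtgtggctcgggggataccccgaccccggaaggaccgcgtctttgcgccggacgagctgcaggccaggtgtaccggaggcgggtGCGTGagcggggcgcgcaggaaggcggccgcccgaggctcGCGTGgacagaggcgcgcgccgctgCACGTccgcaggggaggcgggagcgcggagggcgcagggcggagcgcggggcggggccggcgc
Eno2: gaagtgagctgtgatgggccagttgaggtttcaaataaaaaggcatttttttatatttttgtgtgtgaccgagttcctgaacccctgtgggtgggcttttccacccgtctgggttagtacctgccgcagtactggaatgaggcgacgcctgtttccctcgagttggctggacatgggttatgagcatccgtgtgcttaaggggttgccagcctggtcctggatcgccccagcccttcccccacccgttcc

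The match of Pfkl began 99 bases before the start and that of Car9 18 bases before it. Bnip3 held 5 matches, a palindrome counted on both strands among them, Ankrd37 held 4, the nearest 6 bases before the start, and Ero1a held 3. Eno2 held none of these letters in its window. Over the 36 members with a RefSeq promoter, 45 of 57 windows (78.9%) held a match, against 12679 of 32851 windows of the same length over all promoters (38.6%) and 6915 of 12354 windows of the genes tested (56.0%). A match was present in 20 of 27 windows of the glycolytic enzymes (74.1%) and in 14 of 18 windows of the other HIF targets (77.8%). For members lower with the inhibitor past both cutoffs it was 11 of 11 windows in 8 genes, and for those higher 2 of 4 windows in 3 genes. These counts describe letters in a window, and Slc2a3, Epas1, Bnip3l and Ndrg1 had no promoter under their symbol to search. They cover all 57 member windows, while the bases after the start lay in a transcript of GENCODE vM21 for 47. Among the windows without such a transcript were that of Egln3, a window of Ldha and the only Vegfa window with a match.

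Levels are given in TPM, transcript abundance corrected for gene length and library size, for each library. Changes are log2 fold changes of ILN over IL from read counts, positive where ILN was the higher. Genes past both cutoffs had a Benjamini-Hochberg adjusted p, over all genes tested, below 0.05 by the edgeR quasi-likelihood test, and a size of the log2 fold change over 1. SE is an approximate standard error of that log2 value, computed as its size divided by the square root of the F statistic of the test. Library totals were 16615831 to 16878162 reads in IL and 17529836 to 17735850 in ILN, and libraries of 1 group correlated at 0.995 or more, against 0.928 or less between groups. The biological coefficient of variation was 2.33%, so small changes passed the test throughout the table. The p-values rest on the spread between 3 libraries per group, which the methods call biological replicates. In this test the spread of each gene is drawn toward a trend over all genes tested. The markers of cartilage cells were sparse: Col2a1, the main collagen of cartilage, was at 0.217 TPM in IL and 0.0400 TPM in ILN, Matn1 was at 0 in all libraries, and Acan, Col9a1 and Hapln1 were not analysed here. The cartilage transcription factors Sox9 (6.44 TPM in IL and 11.4 TPM in ILN, log2 fold change 0.85) and Sox5 (10.3 and 2.27 TPM, −2.49) moved in opposite directions, and the 8 listed chondrocyte markers summed to 16.7–17.9 TPM in IL and 13.5–14.4 TPM in ILN. Fibroblast markers summed to 1106–1151 and 337–351 TPM, nearly all from Col1a2, while Pdgfra rose (log2 fold change 1.91). Macrophage markers summed to 10.9–14.1 and 124–135 TPM, nearly all from Cd68, with the leukocyte gene Ptprc at 0 throughout. Endothelial (0.05–0.28 and 0.40–0.55 TPM) and epithelial markers (0.07–1.35 and 0–0.08 TPM) were near 0. The part of these differences in the results below was not tested, and in bulk RNA fewer cells of a type and less RNA per cell cannot be told apart.

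Of the 36 members tested, 26 were lower (72.2%) and 8 were higher (22.2%) with the inhibitor by the edgeR test alone. Over all genes tested the shares were 39.8% lower and 40.2% higher. Past both cutoffs, 8 members were lower (22.2%), against 10.1% of all genes, and 4 were higher (11.1%), against 6.48%. The 8 were Pfkl, Aldoc, Ldha, Pfkfb3, Egln3, Bnip3, Car9 and Ankrd37, and the 4 were Eno2, Vegfa, Ndrg1 and Ero1a. In either direction this was 12 members (33.3%), against 16.6%. Another 22 members passed the test with a change under the fold cutoff, and Slc2a3 and Gpi1 did not pass it. The TPM of the groups did not overlap for 34 members (94.4%), against 79.4% of all genes tested. The median log2 fold change of the 36 was −0.57 beside 0.0018 over all genes.

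Glucose enters cells through facilitative transporters. Slc2a1 (Entrez gene 20525), which encodes GLUT1, was at 48.34, 50 and 47.92 TPM in IL and at 67.80, 68.61 and 67.76 TPM in ILN. All ILN libraries lay above all IL libraries, and the log2 fold change was 0.51 (SE 0.0373, edgeR quasi-likelihood adjusted p = 4.66e-18). Slc2a3, which encodes GLUT3, was at 13.33, 14.79 and 13.29 TPM in IL and 13.61, 13.36 and 13.71 TPM in ILN. Here the groups overlapped, with a log2 fold change of 0.00 (SE 0.0551) and an edgeR quasi-likelihood adjusted p of 0.943. The GLUT1 gene thus held 77.9% ± 0.674 (SD, n = 3) of the summed TPM of both transporters in IL and 83.4% ± 0.279 (SD, n = 3) in ILN.

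Hexokinase, which traps glucose in the cell as glucose-6-phosphate, was the step of the pathway whose summed transcript level was higher with the inhibitor. Hk1, the housekeeping form, was at 69.41, 70.95 and 67.71 TPM in IL and 74.74, 75.27 and 69.61 TPM in ILN. The lowest ILN library lay within the IL range, and its log2 fold change of 0.10 (SE 0.0323) had an edgeR quasi-likelihood adjusted p of 0.00376, or 0.0871 with limma on log2(TPM + 1). Hk2, the form known as a HIF target, was at 22.85, 22.96 and 23.49 TPM in IL and 36.87, 35.74 and 35.22 TPM in ILN. The ILN libraries lay apart from and above the IL libraries, with a log2 fold change of 0.67 (SE 0.0358, edgeR quasi-likelihood adjusted p = 1.55e-23). The Hk2 share of both genes went from 25% ± 0.682 to 32.9% ± 0.706 (SD, n = 3 each).

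Gpi1, glucose-6-phosphate isomerase, hardly moved. It was at 224.85, 226.61 and 227.77 TPM in IL and 220.03, 220.92 and 221.39 TPM in ILN, 2.49% lower on the TPM scale with no overlap. On the count scale its log2 fold change was −0.0042 with a SE of 0.0274 and an edgeR quasi-likelihood adjusted p of 0.893. In GENCODE vM21, 741 bases of its exons overlap a gene on the other strand, and the sources used here do not say whether counting used strand.

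The next step, phosphofructokinase, commits sugar to glycolysis, and its 3 genes fell unequally. Pfkl, the liver-type subunit, was at 101.23, 99.10 and 92.21 TPM in IL and at 26.06, 27.13 and 26.36 TPM in ILN. Every ILN library was below 28 TPM and every IL library above 92 TPM; the log2 fold change was −1.85 (SE 0.0380, edgeR quasi-likelihood adjusted p = 3.24e-38), the largest fall among the glycolytic enzymes in fold terms. Pfkm, the muscle-type subunit, was at 53.68, 52.03 and 53.95 TPM in IL and 35.56, 34.64 and 34.61 TPM in ILN, a log2 fold change of −0.57. Of its exon bases, 341 overlap another gene on the same strand. Pfkp, the platelet-type subunit, was at 13.79, 13.97 and 12.39 TPM in IL and 7.77, 7.55 and 8.36 TPM in ILN, a log2 fold change of −0.77, and 748 bases of its exons overlap Pitrm1 on the other strand. None of the 3 overlapped between the groups. The order of the subunits changed with these unequal falls: Pfkl held 59.4% ± 1.07 of their summed TPM in IL and 38.2% ± 0.813 in ILN, and Pfkm held 32.5% ± 1.37 and 50.4% ± 0.751 (SD, n = 3 each).

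Aldolase splits the 6-carbon sugar. Aldoa, the abundant form, was at 561.63, 542.86 and 529.31 TPM in IL and 398.77, 412.21 and 391.92 TPM in ILN, with a log2 fold change of −0.40. Aldoc, a minor form here, was at 2.55, 3.58 and 3.70 TPM in IL and 1.67, 0.87 and 0.98 TPM in ILN. The groups did not overlap for either gene, though the Aldoc libraries were widely spread and rested on 251 reads in IL and 96 in ILN. The log2 fold change of Aldoc was −1.45 (SE 0.189, edgeR quasi-likelihood adjusted p = 8.48e-09); with limma on log2(TPM + 1) it was −0.98, under the fold cutoff.

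From triose phosphate to pyruvate, each of the abundant enzymes was lower in every ILN library. Tpi1, which interconverts the triose phosphates, was at 702.81, 697.74 and 682.65 TPM in IL and 336.90, 344.37 and 340.43 TPM in ILN. Its log2 fold change of −1.0 (SE 0.0282) lay just inside the fold cutoff and beyond it under 9 of 13 alternative settings, with values from −0.98 to −1.03. Gapdh, the oxidising step and the most abundant member, was at 7817.75, 7904.22 and 7798.56 TPM in IL and 4871.05, 4986.73 and 5080.61 TPM in ILN, a log2 fold change of −0.62 (SE 0.0257, edgeR quasi-likelihood adjusted p = 3.31e-28). Gapdh is a common reference gene in expression assays, and here it made up 0.784% of all TPM in IL and 0.498% in ILN. Pgk1, which makes the first ATP of the pathway, went from 808 ± 11.7 to 464 ± 10.2 TPM (SD, n = 3 each; log2 fold change −0.77), and Pgam1, the mutase that follows, from 818 ± 15.6 to 540 ± 4.69 TPM (log2 fold change −0.57).

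Enolase showed opposite directions within 1 step. Eno1, the ubiquitous form, was at 545.22, 552.72 and 548.43 TPM in IL and 342.98, 354.43 and 357.63 TPM in ILN, with a log2 fold change of −0.61 (SE 0.0279). Eno2, the form typical of neurons and also a known HIF target, was at 6.08, 6.78 and 6.09 TPM in IL and 14.01, 15.54 and 15.03 TPM in ILN, a log2 fold change of 1.30 (SE 0.0807, edgeR quasi-likelihood adjusted p = 8.28e-21). The groups did not overlap for either gene, and Eno2 went from 1.14% ± 0.0643 to 4.05% ± 0.139 of their summed TPM (SD, n = 3 each). Eno1 has a near-identical copy, Eno1b, listed separately at 433.07–488.94 TPM in IL and 286.41–290.24 TPM in ILN, so the reads of Eno1 may be split between both and its level is uncertain. The share of Eno2 leaves out Eno1b and Eno3. Gapdh, Pgk1, Pgam1, Tpi1 and Ldha also have processed copies in the mouse genome, and the sources used here do not say how reads shared with them were counted.

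Pyruvate kinase and lactate dehydrogenase close the pathway. Pkm was at 1575.48, 1565.79 and 1566.97 TPM in IL and 846.63, 833.99 and 817.25 TPM in ILN, a log2 fold change of −0.88 (SE 0.0260). In GENCODE vM21, 767 of its 5001 exon bases overlap another gene on the same strand. Ldha, which makes lactate and is among the best-known HIF targets, was at 1183.18, 1144.03 and 1098.21 TPM in IL and 414.91, 395.09 and 401.87 TPM in ILN. Its ILN libraries were all below 415 TPM and its IL libraries all above 1098 TPM, with a log2 fold change of −1.47 (SE 0.03, edgeR quasi-likelihood adjusted p = 7.94e-39).

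Summed by step, transcripts were higher in all ILN libraries at 1 of 11 steps, hexokinase (18.1% higher), and lower in all ILN libraries at the other 10. The sums hold member genes only: enolase leaves out Eno1b and Eno3, and lactate dehydrogenase is Ldha alone. Among all genes tested, the TPM of the groups did not overlap for 79.4%, so such separation was common. The fall was 2.49% at glucose-6-phosphate isomerase, which did not pass the test on counts, and from phosphofructokinase on it ran from 26.6% at aldolase to 64.6% at lactate dehydrogenase, with 57.7% at phosphofructokinase, 51.0% at triosephosphate isomerase and 46.9% at pyruvate kinase. The 16 glycolytic enzymes together took 1.45% ± 0.0120 of all TPM in IL and 0.873% ± 0.00852 in ILN (SD, n = 3 each).

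**Figure D1:**
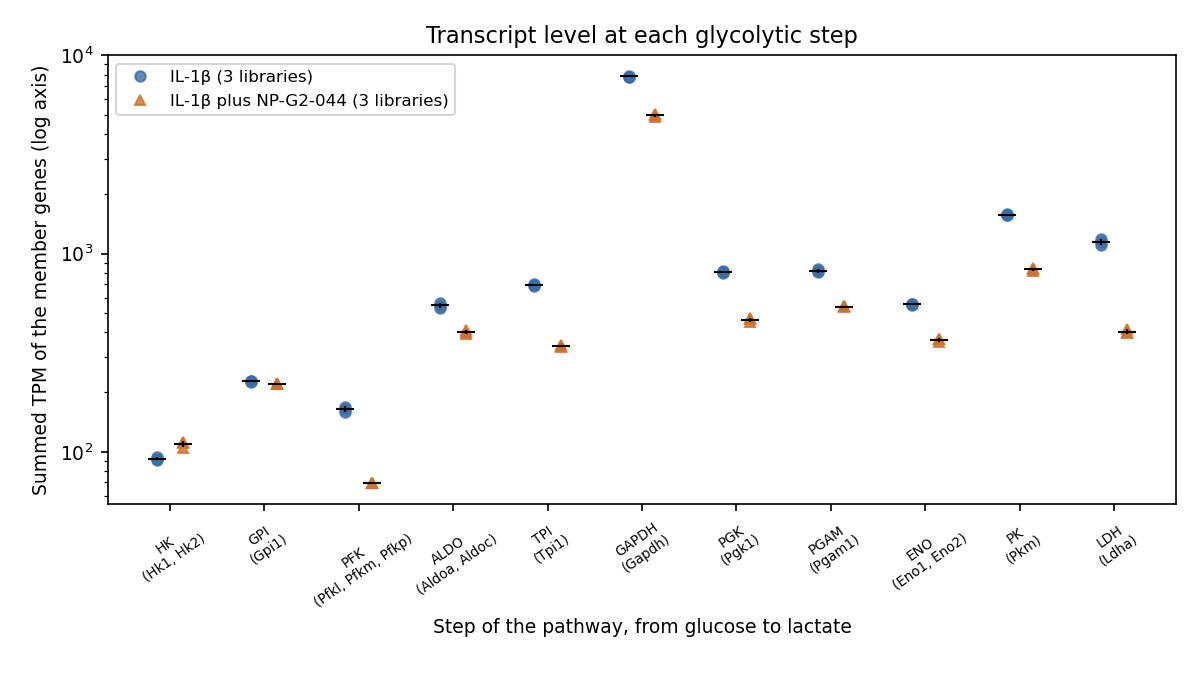
Summed TPM of the member genes at each of 11 glycolytic steps (vertical log axis), in order from glucose to lactate, with each IL library as a circle, each ILN library as a triangle and the mean ± SD in black (n = 3 per group). Triangles lie above the circles at hexokinase, close below them at glucose-6-phosphate isomerase and well below them from phosphofructokinase to lactate dehydrogenase.

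The 8 isozyme shares are plotted by library. None overlapped between the groups, and each had an exact two-sided permutation p of 0.1, the smallest that 3 libraries against 3 can give, so no share can pass 0.05 in this design. The remaining shares were Pfkp at 8.15% ± 0.324 of phosphofructokinase in IL and 11.4% ± 0.605 in ILN and Aldoc at 0.600% ± 0.130 of aldolase in IL and 0.292% ± 0.110 in ILN (SD, n = 3 each). The share of Ldha in lactate dehydrogenase was not computed, since Ldhb was not analysed here.

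**Figure D2:**
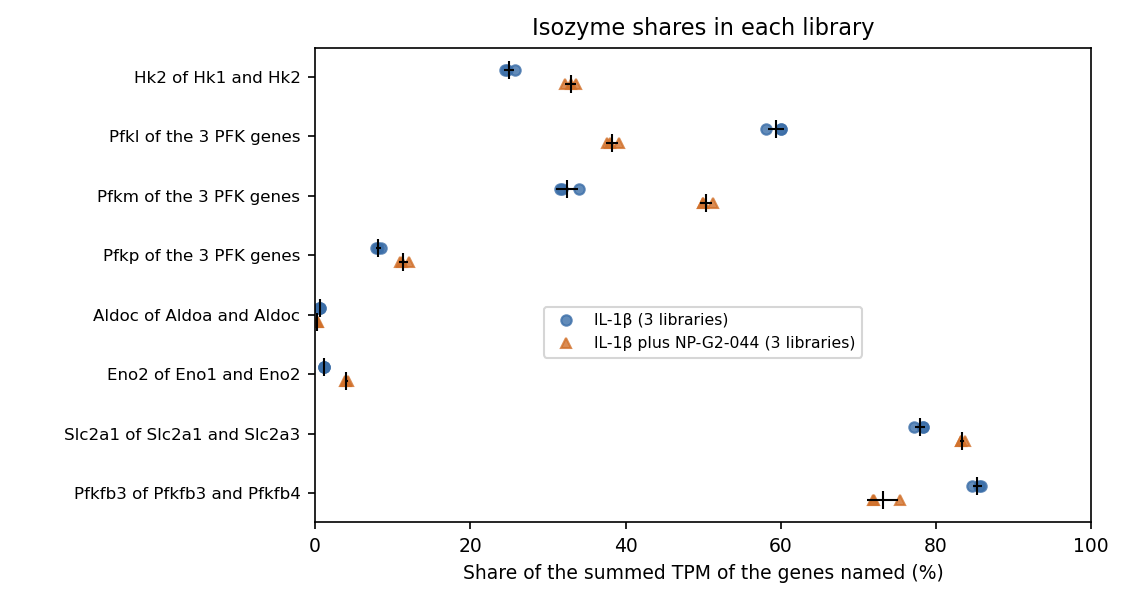
Share of 1 isozyme in the summed TPM of the genes named on its line (horizontal axis, %) in each IL library (circles) and ILN library (triangles), with the mean ± SD in black (n = 3 per group). Pfkl and Pfkm exchange places between the groups, from 59.4% and 32.5% in IL to 38.2% and 50.4% in ILN.

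The bifunctional PFKFB enzymes set the level of fructose-2,6-bisphosphate, an activator of phosphofructokinase. Pfkfb3, the form with the highest kinase activity, was at 36.89, 36.03 and 39.22 TPM in IL and 12.48, 12.14 and 12.39 TPM in ILN. The groups stood far apart, with a log2 fold change of −1.57 (SE 0.0442, edgeR quasi-likelihood adjusted p = 6.94e-36). Pfkfb4 was at 6.08, 6.10 and 7.12 TPM in IL and 4.07, 4.71 and 4.84 TPM in ILN, lower without overlap and with a log2 fold change of −0.46 (SE 0.0958). Pfkfb3 made up 85.3% ± 0.628 of both in IL and 73.1% ± 1.98 in ILN (SD, n = 3 each).

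Lactate leaves the cell through monocarboxylate transporters. Slc16a1, which encodes MCT1, was at 30.22, 31.50 and 32.50 TPM in IL and 53.10, 50.34 and 52.05 TPM in ILN, higher in every ILN library with a log2 fold change of 0.76 (SE 0.0353, edgeR quasi-likelihood adjusted p = 5.29e-26). Slc16a3, which encodes the exporter MCT4 and is the HIF-responsive form, had 18 reads in IL and 19 in ILN and did not pass the filter; the ratio of pooled reads, IL over ILN, was 0.997 with an exact 95% interval of 0.493 to 2.01 that covers counting error only. With that filter left out, the log2 fold change of Slc16a3 was 0.01 (SE 0.522, edgeR quasi-likelihood adjusted p = 0.987). Pdk1, a kinase that shuts off pyruvate dehydrogenase, was at 23.54, 25.26 and 22.38 TPM in IL and 13.92, 13.37 and 12.24 TPM in ILN, lower without overlap (log2 fold change −0.77, SE 0.0466).

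Hif1a, the oxygen-regulated subunit, was at 124.26, 125.46 and 127.21 TPM in IL and 101.42, 98.39 and 95.64 TPM in ILN. The ILN libraries lay below all IL libraries, with a log2 fold change of −0.32 (SE 0.0284, edgeR quasi-likelihood adjusted p = 5.16e-15). In GENCODE vM21, 148 bases of the Hif1a exons overlap another gene on the same strand. HIF-1α is regulated mainly at the level of its protein, which was not measured in these files. Epas1, which encodes HIF-2α, had 41 reads in IL and 9 in ILN and did not pass the filter; the ratio of pooled reads, IL over ILN, was 4.79 (exact 95% interval 2.30 to 11.2). With the filter on low counts left out, the log2 fold change of Epas1 was −2.21 (SE 0.503, edgeR quasi-likelihood adjusted p = 2.45e-05), past both cutoffs.

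The prolyl hydroxylase genes Egln1 and Egln3 are themselves HIF targets. Egln1, the main oxygen sensor, went from 54.2 ± 2.06 to 35.5 ± 0.739 TPM (SD, n = 3 each; log2 fold change −0.57, SE 0.0377). Egln3 was near the limit of detection, at 0.43, 0.72 and 0.39 TPM in IL and 0.07, 0.18 and 0.18 TPM in ILN, from 39 and 12 reads. Its groups did not overlap, and its log2 fold change was −1.74 with a SE of 0.440 (edgeR quasi-likelihood adjusted p = 3.66e-04), or −0.40 with limma on log2(TPM + 1).

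The other HIF targets split in direction: 3 rose and 8 fell among the 11 tested, all by edgeR's quasi-likelihood test (adjusted p below 0.05). Of all genes tested, 40.2% were higher and 39.8% lower by that test. The largest rise of any member was that of Ndrg1, a gene induced by hypoxia and by several kinds of stress, at 11.77, 13.05 and 12.31 TPM in IL and 160.44, 166.49 and 160.92 TPM in ILN. This is a log2 fold change of 3.75 (SE 0.0417, edgeR quasi-likelihood adjusted p = 1.50e-54), or 13.4-fold, between groups that were tight and far apart. In GENCODE vM21, 419 and 137 bases of the Ndrg1 exons overlap 2 genes on the other strand.

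Vegfa, the growth factor for blood vessels, was at 29.28, 29.37 and 27.57 TPM in IL and 91.97, 89.29 and 89.03 TPM in ILN. Every ILN library was above 89 TPM, with a log2 fold change of 1.68 (SE 0.0367, edgeR quasi-likelihood adjusted p = 4.88e-41). Ero1a, an oxidase that forms disulfide bonds in the endoplasmic reticulum, was at 29.76, 31.59 and 29.85 TPM in IL and 87.46, 82.25 and 84.64 TPM in ILN. It too stood apart in all libraries, with a log2 fold change of 1.51 (SE 0.0337, edgeR quasi-likelihood adjusted p = 1.21e-40). Its promoter, printed above, held 3 of the motif matches.

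Among those that fell, Bnip3, a mitochondrial protein that marks mitochondria for removal, was at 70.70, 75.30 and 67.74 TPM in IL and 31.33, 31.96 and 33.39 TPM in ILN. The groups did not overlap, and the log2 fold change was −1.11 (SE 0.0490, edgeR quasi-likelihood adjusted p = 3.70e-27); its exons share 504 bases with an antisense gene. Its relative Bnip3l, with the same role, fell less, from 50 ± 2.64 to 35.2 ± 1.31 TPM (SD, n = 3 each; log2 fold change −0.47). Ddit4, an inhibitor of mTORC1 and in IL the most abundant of the other HIF targets, was at 206.41, 180.03 and 183.31 TPM in IL and 129.54, 137.55 and 132.65 TPM in ILN. Its IL libraries spread more than its ILN libraries but stayed above them, with a log2 fold change of −0.48 (SE 0.0604, edgeR quasi-likelihood adjusted p = 5.70e-05).

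The genes that fell most in fold terms were expressed at low levels. Car9, a carbonic anhydrase that handles acid at the cell surface and is widely used as a hypoxia marker, was at 1.05, 0.74 and 0.61 TPM in IL and at 0 in every ILN library, from 43 reads against 0. Against a floor of 3 reads over the group it was at least 15.1-fold lower, while the exact 95% interval of the pooled ratio, which also counts the error of the 43 reads, began at 11.7-fold. The edgeR quasi-likelihood adjusted p was 1.38e-09, and 214 bases of its exons overlap an antisense gene. Ankrd37, an ankyrin repeat protein, was at 7.61, 4.89 and 5.64 TPM in IL and 0.85, 1.08 and 0.28 TPM in ILN, from 133 reads against 18. All its ILN libraries were below 1.1 TPM; the log2 fold change was −2.93 (SE 0.311, edgeR quasi-likelihood adjusted p = 7.29e-12), and 349 bases of its exons overlap Lrp2bp on the other strand.

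Smaller falls were those of Kdm3a, a histone demethylase (64.2 ± 0.690 to 43.0 ± 1.03 TPM, log2 fold change −0.58), Ak4, a mitochondrial adenylate kinase (8.47 ± 0.690 to 5.78 ± 0.675 TPM, −0.42), and Mxi1, a MYC antagonist (53.0 ± 0.480 to 39.4 ± 0.491 TPM, −0.39; SD, n = 3 each). The groups did not overlap for any of them. Adm, the vasodilator adrenomedullin, had 0 reads in all 6 libraries.

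Set side by side, the glycolytic enzymes and the other HIF targets differed in the spread of their changes more than in the median. The enzymes had a median log2 fold change of −0.61 over 16 genes, with 13 below 0 and 3 above, a range of −1.85 to 1.30, an interquartile range of 0.608 and an SD of 0.793. The other targets had a median of −0.47 over 11 genes, with 8 below 0 and 3 above, and an interquartile range of 1.41. Their fitted values ran from −2.93 to 3.75 over the 10 genes without Car9, whose fitted value is no bound, with an SD of 1.83. Past both cutoffs stood 4 of the 16 enzymes (3 lower, 1 higher) and 6 of the 11 targets (3 lower, 3 higher), beside 16.6% of all genes in either direction, 10.1% lower and 6.48% higher. The genes were chosen with earlier results known, so these are descriptions and were given no test.

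Further genes of the same pathways were taken from lists outside the 40. Of 30 further HIF targets, 27 were tested; 11 were higher and 12 lower by edgeR's quasi-likelihood test (adjusted p below 0.05), 4 in each direction passed both cutoffs, and their median was −0.01. By the test alone these shares lie near those of all genes, 40.2% higher and 39.8% lower. For both cutoffs the shares of all genes were 6.48% higher and 10.1% lower. The same backgrounds apply to the lists that follow. Igfbp3, a binding protein of insulin-like growth factors, fell from 910.92–1011.02 TPM in IL to 8.44–10.05 TPM in ILN (log2 fold change −6.67, SE 0.0595). Lox, which cross-links collagen, fell from 147.98–158.54 to 8.57–9.78 TPM (log2 fold change −4.04). Stc2, a secreted glycoprotein, rose from 1.96–2.40 to 19.44–21.24 TPM (log2 fold change 3.30), and Hmox1, a haem-degrading enzyme with several other inducers, rose from 83.85–86.21 to 758.70–770.03 TPM (log2 fold change 3.20). The collagen lysyl hydroxylase Plod2 (log2 fold change −1.32) and the repressor Bhlhe40 (1.5), both named after their values were seen, were among the others past both cutoffs.

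The rest of the HIF machinery stayed under the fold cutoff. Arnt, the constitutive partner of HIF-1α, was at 44.98–45.79 TPM in IL and 48.52–52.26 TPM in ILN, a log2 fold change of 0.19 (SE 0.0338). Vhl, which targets hydroxylated HIF for destruction, had a log2 fold change of 0.22, and Hif1an, an asparagine hydroxylase that blunts HIF activity, had 0.28. Egln2, the third prolyl hydroxylase, had 0.08 with an edgeR quasi-likelihood adjusted p of 0.12. The coactivator gene Ep300 (−0.33) and Cited2, whose protein competes with HIF for it (−0.39, from 617 to 460 TPM), were lower and were named after their values were seen. Of 7 such genes tested, 3 were higher and 2 lower at an adjusted p below 0.05, and none passed both cutoffs.

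Around glycolysis, 5 of 6 further isozyme and regulator genes tested were lower and 1 was higher, by edgeR's quasi-likelihood test (adjusted p below 0.05). Eno3, the muscle enolase, went from 221 ± 7.44 to 135 ± 4.45 TPM (SD, n = 3 each; log2 fold change −0.65), and Tigar, a phosphatase that opposes PFKFB3, had a log2 fold change of 0.82 (both named after their values were seen). The kinases that restrain pyruvate dehydrogenase fell with Pdk1: Pdk2 by 1.92, Pdk4 by 1.40 and Pdk3 by 0.60 on the log2 scale. Over the 13 genes that handle pyruvate, 5 were higher and 6 lower at that adjusted p, with a median of −0.08. Genes chosen after their values were seen include Pdhb, a subunit of pyruvate dehydrogenase (log2 fold change 0.88), the mitochondrial pyruvate carriers Mpc1 (0.43) and Mpc2 (0.56), and pyruvate carboxylase, Pcx (−0.97).

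In the pentose phosphate pathway, which branches off at glucose-6-phosphate, 3 of 7 genes were higher and 3 lower at an adjusted p below 0.05 in the same edgeR test, shares near those of all genes (40.2% and 39.8%). Both NADPH-producing dehydrogenases were among the lower (G6pdx with a log2 fold change of −0.70 and Pgd with −0.73), as was Tkt (−0.67), while Taldo1 (0.51), Rpe (0.70) and Pgls (0.38) were higher; these were named after their values were seen. Of the gluconeogenic genes, 2 of 5 were tested and both were higher, Pck2 with a log2 fold change of 1.43 and G6pc3 with 0.66 (also named after their values were seen).

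The 8 genes of the ATF4 stress response all rose past both cutoffs in edgeR's quasi-likelihood test, against 6.48% of all genes tested. Their median log2 fold change was 3.54. This list was chosen with its rise in these libraries already known. ATF4 with its partners is known to drive several genes that also answer to hypoxia. Atf4 itself was at 170.69–182.72 TPM in IL and 821.69–855.71 TPM in ILN (log2 fold change 2.30), and Ddit3, its partner in the stress response, at 60.91–68.32 and 1195.24–1271.15 TPM (4.05). Atf3 had a log2 fold change of 5.28, Trib3 of 5.06, Chac1 of 4.68 and Sesn2 of 3.04. The part of this response in the changes of the members, higher or lower, was not tested.

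**Figure D3:**
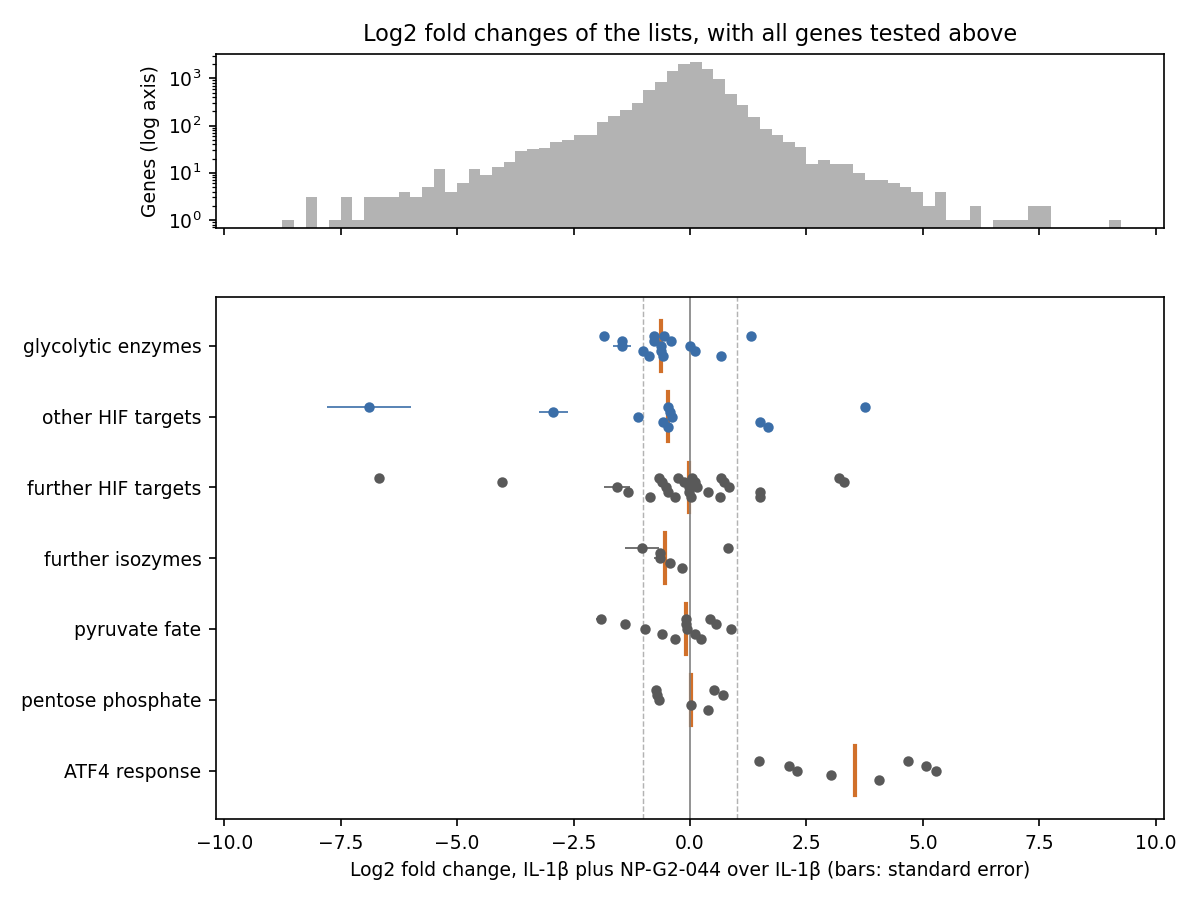
Log2 fold change of ILN over IL (horizontal axis) for the genes of 7 lists, each gene a point with its SE and the list median as an orange bar, below a histogram of all 11983 genes tested (vertical log axis). The glycolytic enzymes cluster left of 0 around a median of −0.61, the other HIF targets spread to both sides, and all 8 ATF4 response genes lie right of the dashed line at 1.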

How the data were processed

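RNA extraction, sequencing and quantification were performed by BGI, as the methods state. The submitters' processing notes name cutadapt, HISAT2 2.0, StringTie and the build mm10, with the counting tool, annotation and use of strand not given in the sources used here. The deposited expected counts are estimated reads per gene, not normalized, and 10.2% to 11.1% of them per library are not whole. The deposited TPM and FPKM were computed by the authors per library, and their group means were not used. FPKM served only as an alternative for the isozyme and TPM shares. Within a library it differs from TPM by a constant factor that cancels in a share, so it is no independent check.

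Counts were rounded, filtered with filterByExpr (minimum count 10), normalized with TMM (factors 0.997 to 1.002) and tested by edgeR 4.0.16 (quasi-likelihood, robust, no covariates) in R 4.3.3, 3 IL against 3 ILN libraries, with Benjamini-Hochberg adjustment over the 11983 genes tested. Cutoffs were 0.05 for the adjusted p and 1 for the size of the log2 fold change, as used in the study. The edgeR test alone was also tried on simulated counts in which 200 genes were changed by known folds. Isozyme shares were compared by an exact permutation test on TPM. Ratios of pooled reads, given where reads were few, carry an exact binomial 95% interval that covers counting error only; against 0 reads the floor was 3 reads over the group.

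The members and lists were chosen with earlier results of these data known. Values per library were given for members past both cutoffs, for the most abundant member of each role and for isozyme pairs. From the other lists, genes past both cutoffs with a mean of at least 10 TPM were named, at most the 10 largest by log2 fold change, plus Arnt, Hif1an, Vhl, Egln2, Pdk2, Pdk3, Pdk4, Atf4, Ddit3 and Trib3. Other genes named were chosen after their values were seen, as stated there. Promoters were taken from RefSeq (GRCm38.p6), matched by gene symbol, and exon overlaps from GENCODE vM21. Alternatives were DESeq2 size factors, library size alone, DESeq2 1.42.0, limma 3.58.1 on log2(TPM + 1), no filter, at least 10 CPM in 3 libraries, the replicate number as a block, and each library left out.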

Additional observations from a re-analysis of the deposited data

How the results depend on the processing

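No member past the test changed direction under any alternative. Slc2a3 and Gpi1, which did not pass it, lay at either side of 0 (leave-one-out values of −0.02 to 0.05 and −0.01 to 0.0058), and Hk1 had an adjusted p of 0.0871 with limma on log2(TPM + 1). Past both cutoffs, 32 of the 36 members kept the same call wherever they were tested. The exceptions were Tpi1, which lay on either side of the fold cutoff (log2 fold change −0.98 to −1.03), and Aldoc, Egln3 and Car9, which with limma on log2(TPM + 1) fell under the fold cutoff at −0.98, −0.40 and −0.84 because the pseudocount shrinks changes of low genes. The same setting gave 514 genes higher and 802 lower past both cutoffs in place of 776 and 1211, and a median of −0.65 for the glycolytic enzymes in place of −0.61. A filter of at least 10 CPM in 3 libraries left 9447 genes and 32 members to test and gave 484 genes higher and 680 lower, with 5 members lower in place of 8: Aldoc, Egln3, Car9 and Ankrd37 were no longer tested and Tpi1 passed the fold cutoff.

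Leaving out 1 library at a time gave 785 to 822 genes higher and 1216 to 1276 lower past both cutoffs, while 4 members were higher and 8 to 10 lower, and the median of the glycolytic enzymes ran from −0.63 to −0.59. The median of the other HIF targets ran from −0.48 to −0.41, the latter without IL replicate 1. All 70 alternative values of the isozyme and TPM shares kept their direction and moved by less than the spread between libraries. No reversal was possible here, so this says little about the shares. The groups did not overlap, so leaving out 1 library must keep the direction. In a share, FPKM and TPM differ only by rounding.

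The labels give both groups the replicate numbers 1 to 3. Deviations of same-numbered libraries from their group means correlated at −0.093, −0.024 and 0.026, and 0 IL libraries correlated best with their own number, so the numbers were not taken to pair the samples. With the replicate block, 775 genes were higher and 1209 lower, 4 members were higher and 8 lower past both cutoffs, 8 were higher and 26 lower by adjusted p, and the medians were −0.61 and −0.47.

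Depth limits Car9, Egln3, Aldoc and Ankrd37, which rest on few reads, and Epas1 and Slc16a3, which had too few reads for the filter and were tested only under some alternatives. Adm had no reads.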
